A study of Mus musculus with 2 samples.

Results

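The miR-26 family of the mouse consists of 3 microRNA (miRNA) genes, Mir26b, Mir26a-1 and Mir26a-2, each lying within a gene of the Ctdsp family. These genes were taken by name from the 1973 miRNA genes listed in the deposited count tables. The study sequenced small RNA (microRNA-seq, size range under 30 nt) from the lung of B6NCrl mouse embryos at embryonic day 14.5, a stage of airway branching. There was 1 group of 2 biological replicates, with no treatment, mutation or second stage, so the comparisons are between genes within a library and between the libraries. By the labels a sample is a single lung from 1 pup, yet the sex is given as pooled, so the number of embryos behind a library is not settled. Collection days differed between the replicates. Replicate 1 held 5128214 counts on the strand of a miRNA gene and replicate 2 held 2332032. Levels are given as counts per 1000000 of these counts (CPM), where 1 count equals 0.195 CPM (replicate 1) or 0.429 CPM (replicate 2). Intervals are 95% exact (Clopper-Pearson) and cover counting error only, since amplified reads need not be separate molecules. The SDs measure the spread between these libraries, which may be technical in part.

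A miRNA is cut from a hairpin precursor, and 1 of its arms then guides Argonaute to messenger RNAs that pair with its seed, the bases 2 to 8. The miR-26 guide is taken mainly from the 5′ arm and is found in many differentiated tissues, where it is known to repress the histone methyltransferase Ezh2 and regulators of the G1 phase of the cell cycle. In human airway smooth muscle cells miR-26a is known to promote hypertrophy. The host genes code for small phosphatases that act on the C-terminal domain of RNA polymerase II. In zebrafish, miR-26b is known to repress the transcript of its own host.

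The mature sequences show how far the 3 genes can be told apart. They are given 5′ to 3′ from RefSeq (GRCm38.p6), with the seed in capitals.
miR-26b-5p: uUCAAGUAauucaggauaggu
miR-26a-5p (from Mir26a-1 and from Mir26a-2): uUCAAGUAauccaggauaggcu
miR-26b-3p: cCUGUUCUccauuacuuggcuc
miR-26a-1-3p: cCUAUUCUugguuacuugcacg
miR-26a-2-3p: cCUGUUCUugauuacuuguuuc
On the 5′ arm all 3 genes carry the same seed, and no other gene in the sequence table has it. Mir26a-1 and Mir26a-2 give the identical 5′ mature sequence of 22 bases. miR-26b-5p has 21 bases, of which 19 match miR-26a-5p when both are aligned at the 5′ end. The substitutions from miR-26a-5p to miR-26b-5p are C11U and C21U, counted from 1 at the 5′ end, both outside the seed. The 3′ arms differ in all 3 genes: 18 of 22 bases are identical between Mir26b and Mir26a-2, 14 of 22 between Mir26b and Mir26a-1, and 16 of 22 between Mir26a-1 and Mir26a-2. The 3′ seed of Mir26b is shared with Mir26a-2 and with 2 genes outside the family, Mir6932 and Mir7039, whereas that of Mir26a-1 was found in no other gene.

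The hairpins show where a read can separate the Mir26a copies. In the Mir26a hairpins capitals mark the longest stretch the copies share, and in the Mir26b hairpin the 5′ mature sequence.
Mir26b: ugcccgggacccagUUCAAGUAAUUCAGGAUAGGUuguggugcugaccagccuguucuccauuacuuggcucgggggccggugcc
Mir26a-1: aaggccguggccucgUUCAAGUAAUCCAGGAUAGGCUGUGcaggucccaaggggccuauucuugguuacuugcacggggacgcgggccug
Mir26a-2: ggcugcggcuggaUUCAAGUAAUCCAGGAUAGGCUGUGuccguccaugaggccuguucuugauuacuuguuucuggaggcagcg
The shared stretch is 25 bases long and holds the whole 5′ mature sequence. The longest stretch that Mir26b shares is 11 bases with Mir26a-1 and 10 bases with Mir26a-2. Of the 20-base windows in each hairpin, 0 of 66 of Mir26b occurred in another of the 1005 hairpins in the table, against 6 of 71 of Mir26a-1 and 6 of 65 of Mir26a-2, where the other copy was the only match. Predicted folding energies were -43.5 kcal/mol for Mir26b, -49.4 kcal/mol for Mir26a-1 and -44.5 kcal/mol for Mir26a-2 (RNAfold minimum free energy, not adjusted for hairpin length).

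**Figure D1:**
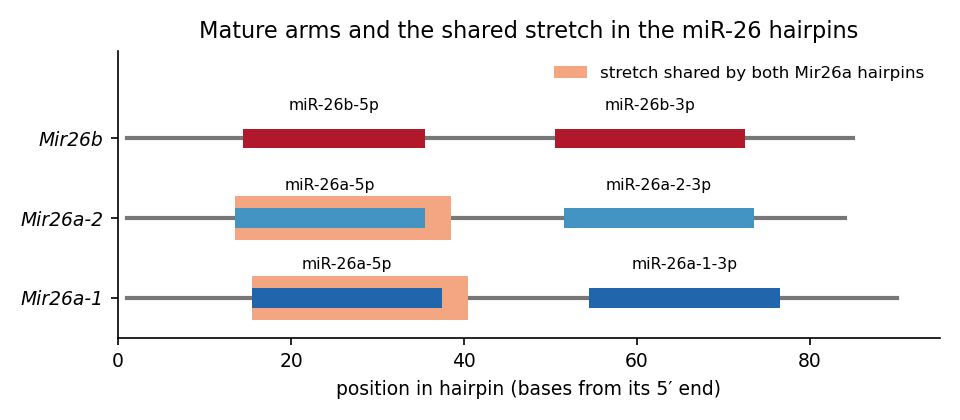
Map of the 3 miR-26 hairpins, with the position in bases from the 5′ end on the x axis and 1 gene per line. Narrow boxes are the mature arms and the wide box is the stretch of 25 bases shared by Mir26a-1 and Mir26a-2, which covers their whole 5′ mature sequence and leaves their 3′ arms distinct.

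All 3 hairpins lie on the plus strand, like their hosts, in mm10 coordinates. Mir26b is on chromosome 1 (74394310 to 74394394), in intron 4 of 6 of Ctdsp1, an intron of 564 bases. Mir26a-1 is on chromosome 9 (119031796 to 119031885), in intron 5 of 7 of Ctdspl, which is 3283 bases long. Mir26a-2 is on chromosome 10 (126995530 to 126995613), in intron 5 of 7 of Ctdsp2, which is 1946 bases long, and it also overlaps an exon of 2 other annotated Ctdsp2 transcripts. The introns are those of the principal annotated transcript. No other annotated gene overlaps the hairpins. Expression of the hosts was not measured in these small RNA tables.

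Mir26b was among the most abundant miRNA genes of the lung, while the Mir26a genes were counted at far lower levels. Mir26b had 165505 counts (32273 CPM, 32121 to 32427) in replicate 1 and 76172 counts (32663 CPM, 32436 to 32892) in replicate 2. Its mean was 32468 ± 276 CPM (SD, n = 2), an SD of 0.849% of the mean. The libraries gave it nearly the same share of counts, 3.23% and 3.27%.

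Mir26a-2 had 298 counts (58.1 CPM, 51.7 to 65.1) in replicate 1 and 124 counts (53.2 CPM, 44.2 to 63.4) in replicate 2, a mean of 55.6 ± 3.49 CPM (n = 2). Mir26a-1 had 123 counts (24.0 CPM, 19.9 to 28.6) in replicate 1 and 43 counts (18.4 CPM, 13.3 to 24.8) in replicate 2, a mean of 21.2 ± 3.92 CPM (n = 2). The order Mir26b, Mir26a-2, Mir26a-1 was the same in both libraries, and no intervals of different genes overlapped. These are levels of reads assigned to a single locus, so a read within the stretch shared by the Mir26a copies enters neither of them. How readily each sequence was captured was not measured, and in whole lung fewer cells with a miRNA and less of it per cell cannot be told apart.

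Each locus had 0 counts on the opposite strand in both libraries. A count of 0 was taken to allow up to 3 counts, a fixed limit and not the exact interval used elsewhere. This limit is 0.585 CPM at the depth of replicate 1 and 1.29 CPM at that of replicate 2.

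**Figure D2:**
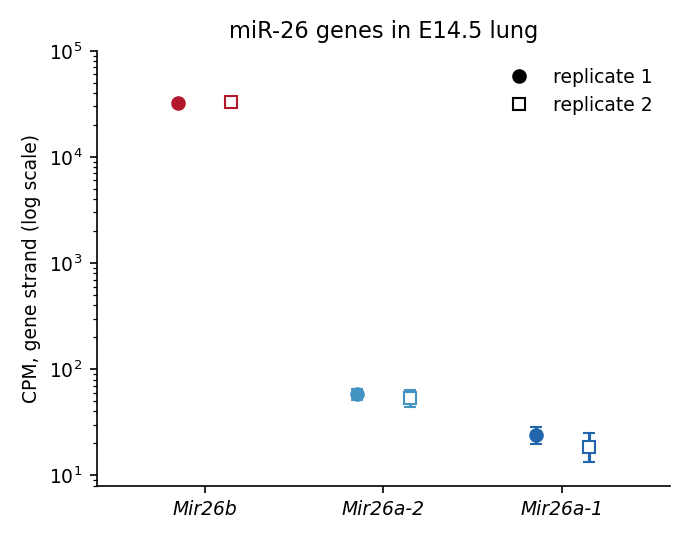
CPM of each miR-26 gene on a log scale, by library, with filled circles for replicate 1, open squares for replicate 2 and bars for the 95% exact interval. Mir26b lies at 32273 and 32663 CPM, and the Mir26a genes lie between 18.4 and 58.1 CPM.

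By mean CPM Mir26b ranked 10 of 1973 genes, Mir26a-2 ranked 224 and Mir26a-1 ranked 252. All 3 passed a minimum of 10 counts in both libraries, as did 320 genes in all. Mir26b was rank 9 in replicate 1 and rank 12 in replicate 2. Next above it was Mir17, of the miR-17 to miR-92 cluster, at 35078 ± 8112 CPM, and next below was Mir23b at 32119 ± 3179 CPM (SD, n = 2). Both neighbours lay within their own SD of Mir26b, so these ranks are not separated by the replicates.

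The genes most like each member were found by the distance of log2(CPM + 1) over the 2 libraries, which is a likeness of level over 2 points. For Mir26b they were Mir130a (31709 ± 1486 CPM, distance 0.074), Mir23b (0.13) and Mir99a (36995 ± 3187 CPM, 0.30). For Mir26a-1 they were Mir490 (21.4 ± 3.62 CPM, 0.031), Mir450-2 (19.7 ± 2.43 CPM, 0.16) and Mir3105 (20.5 ± 0.793 CPM, 0.31). For Mir26a-2 they were Mir218-2 (58.5 ± 0.845 CPM, 0.12), Mir190a (58.9 ± 3.37 CPM, 0.21) and Mir30c-2 (55.4 ± 4.72 CPM, 0.21). Mir450-2, Mir218-2 and Mir30c-2 are, like the Mir26a genes, copies that share a mature arm with a gene elsewhere. Mir490, Mir3105 and Mir190a share none.

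**Figure D3:**
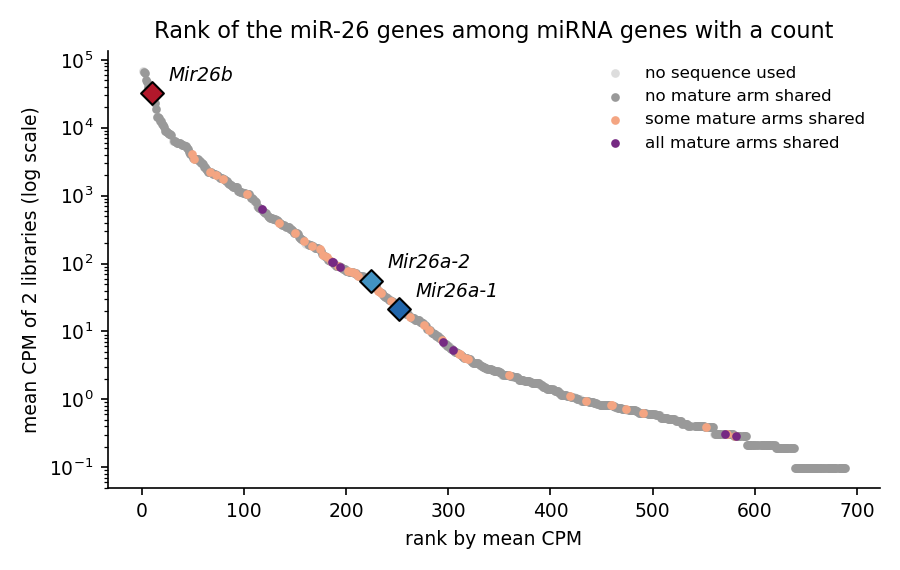
Mean CPM of every miRNA gene with a count, on a log scale, against its rank, with the miR-26 genes as diamonds and the other genes coloured by whether their mature arms are shared with another gene. Mir26b, which shares no arm, stands at rank 10 of all genes, and Mir26a-2 and Mir26a-1 stand at ranks 224 and 252.

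The contrast between the gene with its own mature sequence and the copies that share one exceeded the spread between libraries by far. Mir26b had 393 times the summed counts of Mir26a-1 and Mir26a-2 in replicate 1 (95% interval of the ratio 357 to 434) and 456 times in replicate 2 (392 to 534). The log2 ratio was 8.73 ± 0.15 (SD, n = 2). Mir26b made up 99.7% of the family's counts in replicate 1 (interval 99.72 to 99.77) and 99.8% in replicate 2 (99.75 to 99.81), and the Mir26a copies together 0.254% and 0.219%.

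This contrast stands beside a property of the tables. Reads that aligned at several places were counted as multimapping and assigned to no gene, and they made up 32.9% of all reads in replicate 1 (3359798) and 33.1% in replicate 2 (1503822). A read that lies within the 25 shared bases aligns at both Mir26a loci. The tables do not say from which genes the multimapping reads came. The gap between Mir26b and the Mir26a copies was 165084 counts in replicate 1 and 76005 in replicate 2, which equals 4.91% and 5.05% of the multimapping reads. How much of the gap such reads make up was not tested, and the Mir26a counts are lower bounds. This does not extend to CPM, whose denominator also leaves out the multimapping reads.

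Within the Mir26a copies, Mir26a-2 exceeded Mir26a-1 in both libraries. The ratio was 2.42 in replicate 1 (interval 1.96 to 3.01) and 2.88 in replicate 2 (2.02 to 4.18), a log2 ratio of 1.40 ± 0.18 (SD, n = 2). This compares only reads that could be placed at 1 locus.

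The same classes were then set out for all measured genes with a mature sequence in the RefSeq table (916 genes), to see where the members stand. The classes rest on the arms listed there, so a gene whose shared arm is not listed can count as sharing none. Among 829 genes that shared no mature arm, 251 (30.3%) passed 10 counts in both libraries, with a median of 321 CPM, and 8 of them exceeded Mir26b. Among 53 genes that shared an arm and kept another of their own, as the Mir26a copies do, 36 (67.9%) passed, with a median of 69.9 CPM. Of these 36, 15 lay below Mir26a-2 and 8 below Mir26a-1, and 0 reached the level of Mir26b, the highest being Mir92-1 at 4114 CPM. Among 34 genes with every arm shared, 6 (17.6%) passed, with a median of 97.6 CPM. Mir26a-2 thus stood near the middle of its class and Mir26a-1 in its lower part, and Mir26b near the top of its own.

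Families built like miR-26, with copies of identical mature sequence and relatives of the same seed that share no arm, gave a wider frame. There were 19 such seed groups, of which 12 had at least 1 gene with 10 counts in both libraries on each side. A group formed by let-7 3′ arms repeats genes of the let-7 family, and without it 11 remained. The single relatives held more counts than the identical copies in both libraries in 9 of these 11. The log2 ratio of 8.73 ± 0.15 for miR-26 was the highest of the 11 as counted. Multimapping reads are missing from the identical copies of every family to an unknown extent, so the order of the families by abundance is not settled by these ratios. Next came the miR-30 family with 7.90 ± 0.22, where Mir30a and Mir30e stand against Mir30c-1 and Mir30c-2, and let-7 with 5.57 ± 0.14 (SD, n = 2 each). The other families of the 5 most abundant were lower, with 3.64 ± 0.34 for the group of Mir15a, Mir322 and Mir16 and 1.45 ± 0.018 for miR-181. The direction was opposite for Mir92-1 and Mir92-2 (-0.41 ± 0.058) and for Mir7-1 and Mir7-2 (-2.21 ± 0.17). The number of relatives on each side differs between families, and genes or arms without an entry in the table do not enter. The ratios thus compare sums over listed genes and not single genes. In 5 of the 11 groups, miR-26 among them, there was 1 single relative. The other 4 also had 2 copies each, and their ratios ranged widely. The ratio was 4.63 ± 0.085 for Mir107 over Mir103-1 and Mir103-2 and 1.88 ± 0.79 for Mir196b over the Mir196a copies. For Mir19a over the Mir19b copies it was 0.62 ± 0.12, and for Mir7b over Mir7-1 and Mir7-2 it was the -2.21 ± 0.17 given above.

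**Figure D4:**
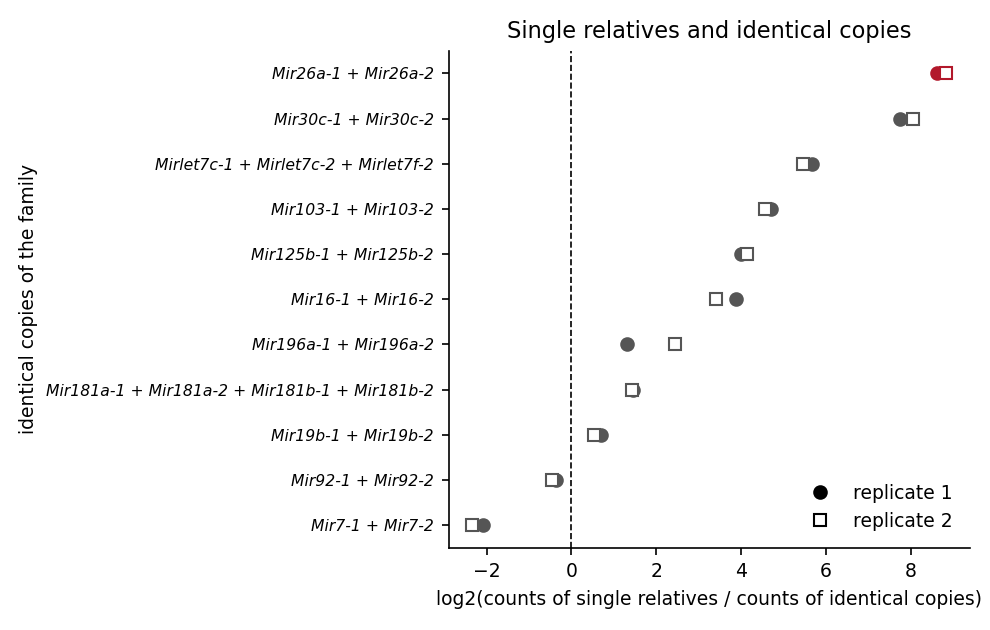
Log2 ratio of the summed counts of single relatives to those of identical copies, for 11 seed families named by their identical copies, with filled circles for replicate 1 and open squares for replicate 2. As counted, with multimapping reads assigned to no gene, the miR-26 family (red) has the highest ratio in both libraries, and 2 families lie left of the dashed line at 0.

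Mir26b had nearly the same level in both libraries, and the Mir26a genes, with far fewer counts, differed more. A difference past 1.5-fold was used as a descriptive limit, which 33 of 320 genes (10.3%) exceeded, 24 (7.5%) higher and 9 (2.81%) lower in replicate 2. Of the 3 members 0 did, a count that the share over all genes would also give. Counting intervals here are those of the CPM ratio without the added 1. The log2 ratio of replicate 2 to replicate 1, on log2(CPM + 1), was 0.017 for Mir26b (counting interval 0.0049 to 0.030). It was -0.13 for Mir26a-2 (-0.44 to 0.18) and -0.36 for Mir26a-1 (-0.92 to 0.13). The intervals of the Mir26a genes include 0, so a difference was not detectable at their depth of 43 to 298 counts. The median absolute log2 ratio over the 320 genes was 0.22. Of these genes 18 (5.62%) differed less than Mir26b, 103 (32.2%) less than Mir26a-2 and 230 (71.9%) less than Mir26a-1. The sign for Mir26b depended on the scaling, since the ratio was -0.052 with TMM and -0.049 with DESeq2 size factors.

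The balance of the members was tested without any scaling, by two-sided Fisher's exact tests on the counts of 2 genes in 2 libraries, adjusted by Benjamini-Hochberg over 3 pairs. Mir26b over Mir26a-1 was 1346 in replicate 1 and 1771 in replicate 2, a 1.32-fold difference (exact p = 0.132, adjusted 0.397). Mir26b over Mir26a-2 was 555 and 614, a 1.11-fold difference (exact p = 0.373, adjusted 0.418). Mir26a-1 over Mir26a-2 was 0.413 and 0.347 (exact p = 0.418, adjusted 0.418). None of the 3 passed an adjusted p of 0.05, which does not show that the balance was equal. These tests compare the reads of 2 libraries and not a condition.

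**Figure D5:**
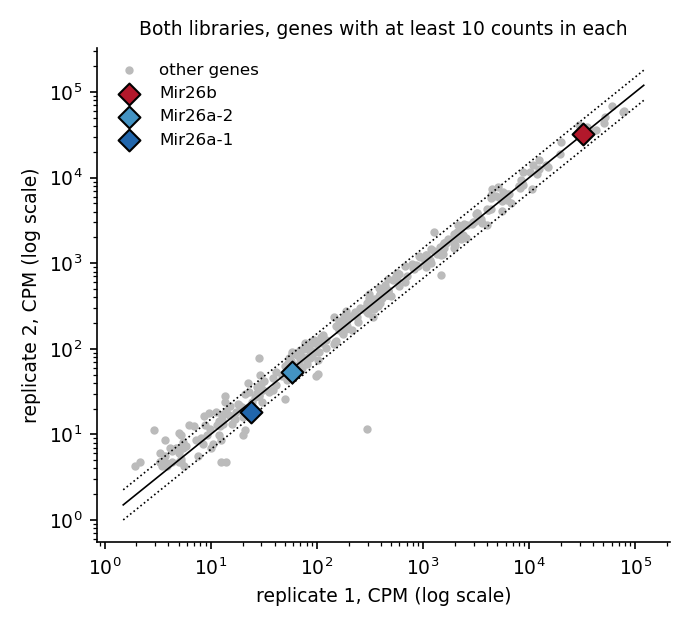
CPM in replicate 2 against CPM in replicate 1, both on log scales, for 320 genes with at least 10 counts in each library, with the miR-26 genes as diamonds. The solid line is equality and dotted lines mark 1.5-fold, and all 3 members lie between the dotted lines.

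Other miRNAs known to act on the targets of miR-26 were present over a wide range of levels. Of 6 miRNAs listed as regulators of Ezh2, 5 were counted and all 5 lay below Mir26b. Mir214, a mesenchymal miRNA of the Dnm3os transcript, led with 8920 ± 692 CPM, followed by Mir101b with 1734 ± 323 CPM, Mir138-2 with 66.5 ± 16.3 CPM and Mir101a with 61.8 ± 5.53 CPM (SD, n = 2 each). Mir138-1 had 47.7 ± 8.97 CPM, and both it and Mir138-2 lay below Mir26a-2 in replicate 1 and above it in replicate 2. Like Mir26a-2, both share a mature arm with another gene, so multimapping reads can be missing from these counts. Between libraries 0 of 5 exceeded 1.5-fold, against 10.3% of all genes, which says nothing particular about these 5. Their median log2 ratio was 0.16, against 0.095 over all 320 genes.

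Of 10 miRNAs listed as regulators of G1 cyclins and their kinases, 9 were counted and all 9 exceeded the Mir26a genes as counted. Multimapping reads are missing from the Mir26a counts, so this does not rank miR-26a among these regulators. Mir322, of an X-linked cluster, was the only one above Mir26b, at 46826 ± 5454 CPM. Mir15a (5450 ± 144 CPM), Mir16-1 (3516 ± 410 CPM) and Mir15b (3010 ± 18.3 CPM) followed. Mir16-1 shares a mature arm with another gene, so multimapping reads can be missing from its count. Its place among these is therefore not settled. Between libraries 1 of 9 exceeded 1.5-fold, against 10.3% of all genes in either direction, which says nothing particular about these 9. It was Mir449a of multiciliated cells, lower in replicate 2 (1477 CPM in replicate 1 and 735 CPM in replicate 2). Of all genes 2.81% were lower in replicate 2 past that limit. The median log2 ratio of the 9 was -0.054. Mir101c and Mir497 were not analysed here.

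Marker miRNAs of the cell types of lung were present. The endothelial Mir126a, the smooth muscle Mir143 and Mir145a and all 5 epithelial miR-200 genes passed 10 counts in both libraries. The cardiac and skeletal muscle list of 5 genes, of which 4 passed, summed to 368 CPM in replicate 1 and 56.2 CPM in replicate 2. In replicate 1 most of this was the cardiac Mir208a, at 299 CPM against 11.6 CPM in replicate 2. In replicate 2 the highest of the list was Mir208b, at 25.7 CPM against 49.9 CPM in replicate 1. The skeletal muscle miRNA Mir206 was higher in replicate 2, at 6.24 and 12.9 CPM. Sums in the same order were 497 and 392 CPM for the red blood cell list and 691 and 662 CPM for white blood cells. The hepatocyte miRNA Mir122 had 22.4 and 39.5 CPM. Of the red blood cell list, Mir144 was lower in replicate 2 past 1.5-fold (102 and 51.0 CPM) and Mir451a was not (394 and 340 CPM). The part of the muscle list in the values of the miR-26 genes was not tested, and these differed by less than 1.5-fold between the same libraries.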

How the data were processed

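The authors deposited, for each of the 2 libraries, 3 columns of whole-number counts for the miRNA genes, unnormalized judging from their differing totals. On the values these are counts without regard to strand, on the gene strand and on the opposite strand. Per the deposited readme the genome was mm10 and the annotation GENCODE M4. Aligner, counter and trimming were not given in the sources used here. The 4 summary entries (unmapped, multimapping, no feature, ambiguous) stayed out of library totals. Unmapped reads enter the total reads given.

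CPM were computed over gene-strand counts. Of 1973 identifiers 1894 matched GENCODE M21, whose symbols and mm10 positions were used. Sequences are from RefSeq (GRCm38.p6), matched by symbol for 927 genes. A family was built from mature sequences shared between genes and seed bases 2 to 8. The self-test used simulated counts. No column was left unused (0).

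The members and lists were chosen with earlier results of these data known. Named genes are the members, the 3 genes nearest in level to each, the 4 highest of each list and the 5 most abundant families. Mir138-1, Mir449a, Mir92-1, Mir92-2, Mir7-1, Mir7-2, Mir107, Mir103-1, Mir103-2, Mir17, Mir206, Mir208a, Mir208b, Mir6932 and Mir7039 were named after their values were seen. So were Mir196b, Mir19a, Mir7b, Mir144 and Mir451a. Software was R 4.3.3, edgeR 4.0.16 (TMM), DESeq2 1.42.0 (size factors), Python 3.11.15, scipy 1.17.1 and RNAfold 2.7.2.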

Additional observations from a re-analysis of the deposited data

How the results depend on the processing

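Of 52 recomputed values, 41 stayed within their error or within 1.5 times the count. The levels and the Mir26b to Mir26a ratios of single replicates are among the 41 by construction. With 2 libraries each such value lies within the SD of the mean, so these say nothing about stability. The members have 0 opposite-strand counts, so counts regardless of strand could not alter 4 further values, the ratio of Mir26b to Mir26a and the 3 pair balances. The balances had no other alternative. Scaled to 1000000 mapped reads, multimapping reads included, the mean levels were 18779 for Mir26b, 12.3 for Mir26a-1 and 32.2 for Mir26a-2. Without the most abundant gene in the denominator they were 34891 for Mir26b and 59.8 CPM for Mir26a-2, and with counts regardless of strand Mir26b was at 31548 CPM. The log2 ratio of Mir26b to Mir26a was 9.89 with the geometric mean of the copies and 9.19 with the more abundant copy alone. With single replicates it was 8.62 to 8.83, and the levels were 32273 to 32663, 18.4 to 24.0 and 53.2 to 58.1 CPM. The ratio between replicates of Mir26b was -0.052 on the log2 scale with TMM and -0.049 with DESeq2 size factors, which shifted the median gene by -0.069 and -0.066. With no filter on low counts 97 of 541 genes were past 1.5-fold. With the group of let-7 3′ arms kept, single relatives were higher in 10 of 12 families, the count from which these alternatives start. Families with single relatives higher were 8 of 10 when a shared stretch of 20 hairpin bases defined copies. They were again 10 of 12 in each library alone, an alternative chosen after seeing the data. No paired analysis was possible because there is 1 group. Depth limits the Mir26a genes, of which Mir26a-1 had 43 counts in replicate 2.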
